A study of Mus musculus with 6 samples.

Results

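Many genes at the distal end of mouse chromosome 9 had more RNA in SIRT1 KO than in WT mouse embryonic stem cells (mESCs). The stretch runs from near the start of Osbpl10, at 114.98 Mb of GRCm38, to the end of the chromosome. A list of 41 genes on this stretch is described here gene by gene. Of these, 40 had a row under the listed name among the 54352 genes of the expression table, and no row carried the name Zbtb47, which may stand there under another symbol. The 40 genes all code for protein, span 114.98 to 123.72 Mb and lie on the plus strand in 25 cases and on the minus strand in 15 (GENCODE vM21). The stretch, and so the list, was chosen by the raised log2 values of SIRT1 KO over WT libraries in this same table, so the same 6 libraries picked the genes and gave their values. The difference between genotypes is therefore given for them as a description, with no p-value. Tests were kept for genes elsewhere in the genome whose products work with those of the stretch.

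RNA was sequenced from SIRT1 KO mESCs and from WT mESCs, 3 libraries per genotype, all grown in ESGRO, a medium for stem cells. The labels give a male line on the 129Sv/J background and separate the groups by Sirt1 genotype alone. In the study's methods both genotypes are R1 cells, the SIRT1 KO cells having been made by gene targeting, so each genotype is represented by 1 line and p-values measure the spread between its libraries. Each value is a log2 normalized expression value that the authors derived from read counts. A difference of values is called a log2 fold change, SIRT1 KO over WT. The transformation is not named, so fold changes of genes with low values may be understated.

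SIRT1 is a deacetylase that uses NAD+ and acts on histones and on many transcription factors. Neighbouring genes of a mammalian chromosome mostly serve unrelated functions, and this stretch holds genes of Golgi traffic, mitochondria, cell adhesion and RNA decay side by side. It includes Ctnnb1, which encodes beta-catenin, a protein of cell junctions that also carries Wnt signals to the nucleus and helps mESCs to renew themselves. It also includes Myd88, the adaptor that passes signals from Toll-like and interleukin-1 receptors to the kinases below them.

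Sirt1 itself, on chromosome 10, had log2 values of 13.71, 13.72 and 13.79 in SIRT1 KO libraries, against 15.52, 15.54 and 15.49 in WT libraries. The direction is that of the labels, but Sirt1 RNA remained in SIRT1 KO, at a ratio of 0.292 to WT. SIRT1 protein was not measured in these libraries. All 8 markers of pluripotent stem cells were high in every library, the lowest log2 value being 16.42, and their summed linear values spanned 2067696 to 2131315 in SIRT1 KO libraries and 2057676 to 2138899 in WT libraries, with 0 higher and 1 lower in limma at an adjusted p under 0.01. Of 7 fibroblast markers, which could show feeder cells, Col3a1, Dcn and Lum were too low to be tested, and the sums spanned 4050 to 4592 in SIRT1 KO and 3999 to 4430 in WT, with 1 higher and 1 lower of the 4 tested. Sums of the 6 primitive endoderm, 6 trophoblast and 6 neural markers were higher in SIRT1 KO, at 2202 to 2522, 39491 to 41891 and 71913 to 72348, against 1715 to 2032, 22735 to 24116 and 54612 to 64540 in WT. Their single markers went both ways, with 1 higher and 2 lower in the endoderm list, 2 higher and 1 lower in the trophoblast list and 1 higher and 1 lower in the neural list. Eomes, 1 of the 2 higher trophoblast markers, itself lies on the stretch described here, at 118.48 Mb, with a log2 fold change of 0.48. The trophoblast sum is therefore not separate from the choice of the stretch. The part of cells of these marker lists in the values below was not tested. In RNA from bulk cultures a change in the number of cells that use a gene and a change in RNA per cell cannot be told apart. WT replicate 2 lay farthest from its own group, the root mean square of its deviations being 0.141 against 0.0662 to 0.123 in the other libraries.

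Of the 40 genes, 39 averaged 10 or more on the linear scale and were followed further. Rbms3, an RNA-binding protein gene, stood between -0.043 and -0.028 in all 6 libraries, which is next to no signal. The median log2 fold change of the 39 genes was 0.48, with quartiles of 0.28 and 0.63 and a range of -0.20 to 0.96, whereas the median over all 26571 tested genes was -0.01. In ratios, the middle gene was 1.39 times as high in SIRT1 KO as in WT, 13 genes lay between 1.3 and 1.5, 13 above and 13 below, and 0 reached 2. The log2 fold change was positive for 38 of the 39 genes.

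In limma, 28 of the 39 genes had an adjusted p under 0.01 and a higher level in SIRT1 KO, against 8.47% of all tested genes, and 0 were lower, against 8.12% of all tested genes. At an unadjusted p under 0.05, 0 were lower as well. For 35 genes every SIRT1 KO value lay above every WT value, which held for 21.8% of all tested genes, and the values of Myrip, Trak1, Sec22c and Tmem158 overlapped. Because this contrast picked the stretch, nothing is read from these counts. Standard errors (SE) of the log2 fold changes ran from 0.047 to 0.23, with a median of 0.061.

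The genes moved to a similar extent in each SIRT1 KO library. Their median difference from the WT mean was 0.44, 0.47 and 0.50 in SIRT1 KO replicates 1, 2 and 3, and -0.01, -0.02 and 0.03 in WT replicates 1, 2 and 3. Over the 39 genes Spearman's rho of the log2 fold change was -0.01 with expression level, -0.01 with position along the stretch and -0.11 with exonic length. These correlations are across genes that share the same 6 libraries and are given as a description.

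**Figure D1:**
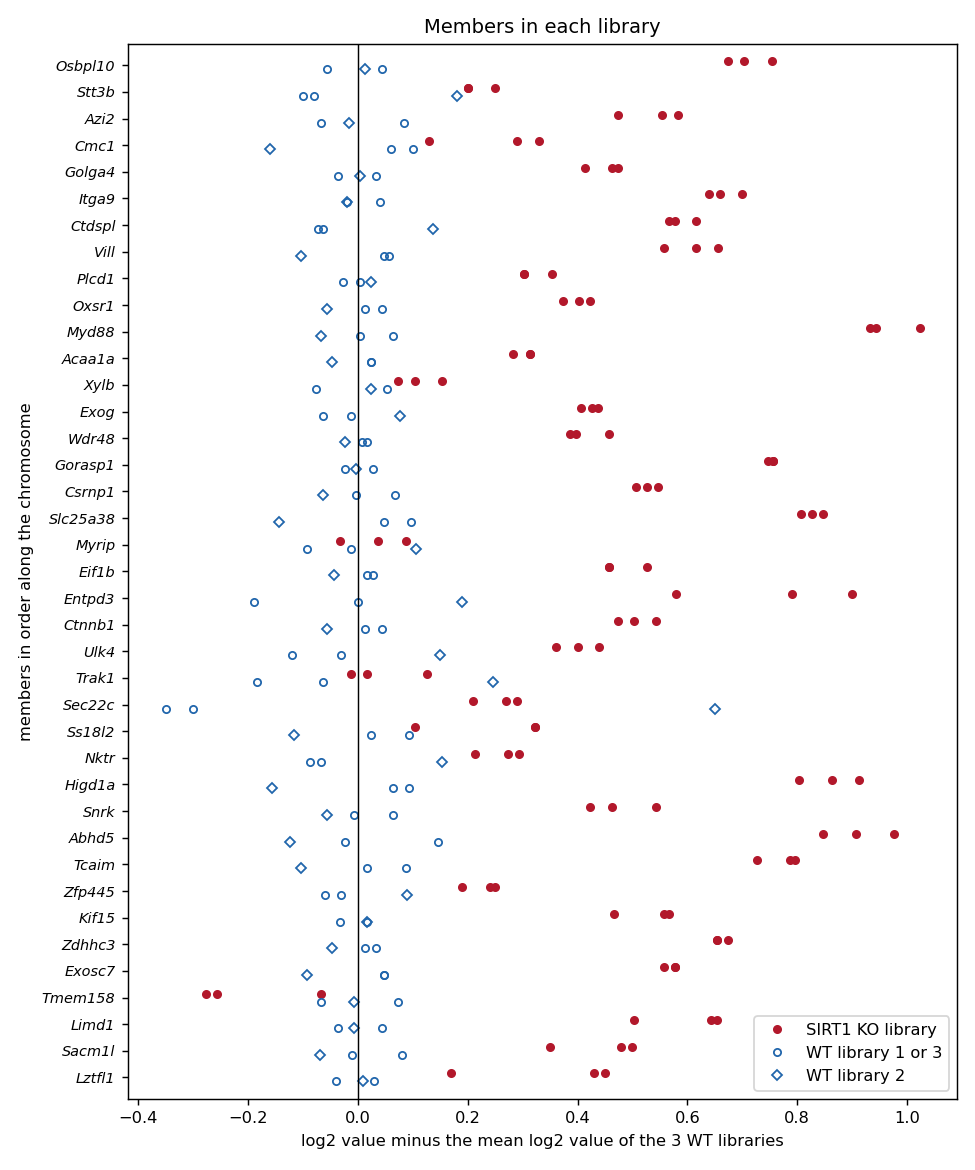
Log2 value of each of the 39 tested genes in every library, minus the mean of the 3 WT libraries, with genes in chromosome order from top to bottom, SIRT1 KO libraries as filled red points and WT libraries as open blue symbols (diamonds for WT replicate 2). The SIRT1 KO points lie to the right of all WT points for 35 genes, Tmem158 lies to the left of 0 in SIRT1 KO, and WT replicate 2 stands far to the right for Sec22c and Trak1.

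Promoters are shown for 4 genes, namely Myd88 for the largest log2 fold change, Ctnnb1 for the highest level, and Zdhhc3 with Exosc7 because these neighbours start back to back. Each runs from 250 bases before to 50 bases after the start site, 5' to 3' on the strand of the gene, from RefSeq on GRCm38.p6, at chr9:119339969-119340268 (minus strand) for Myd88, chr9:120933150-120933449 (plus) for Ctnnb1, chr9:123113145-123113444 (minus) for Zdhhc3 and chr9:123112981-123113280 (plus) for Exosc7. Capitals mark matches on either strand to the GC box GGGCGG, the CCAAT box CCAAT, the TATA box TATAAA and the E-box CACGTG, the hexamer that Myc proteins and their relatives recognise.
Myd88: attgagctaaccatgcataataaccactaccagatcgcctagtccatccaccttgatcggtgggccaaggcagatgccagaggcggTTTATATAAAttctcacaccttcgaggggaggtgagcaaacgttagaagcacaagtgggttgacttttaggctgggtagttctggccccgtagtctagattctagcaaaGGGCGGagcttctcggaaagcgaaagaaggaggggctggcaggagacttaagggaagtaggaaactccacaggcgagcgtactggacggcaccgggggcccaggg
Ctnnb1: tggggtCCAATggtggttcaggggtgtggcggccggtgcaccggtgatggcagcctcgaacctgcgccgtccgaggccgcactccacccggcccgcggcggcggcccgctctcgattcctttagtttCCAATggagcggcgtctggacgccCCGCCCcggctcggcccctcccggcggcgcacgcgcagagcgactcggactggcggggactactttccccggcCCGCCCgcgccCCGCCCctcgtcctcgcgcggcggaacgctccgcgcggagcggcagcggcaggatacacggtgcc
Zdhhc3: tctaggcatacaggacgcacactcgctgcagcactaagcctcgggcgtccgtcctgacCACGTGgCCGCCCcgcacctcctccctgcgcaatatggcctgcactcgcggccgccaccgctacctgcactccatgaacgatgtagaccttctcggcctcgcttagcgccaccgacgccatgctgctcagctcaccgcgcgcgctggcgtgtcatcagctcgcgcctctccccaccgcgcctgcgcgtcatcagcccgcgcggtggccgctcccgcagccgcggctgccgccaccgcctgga
Exosc7: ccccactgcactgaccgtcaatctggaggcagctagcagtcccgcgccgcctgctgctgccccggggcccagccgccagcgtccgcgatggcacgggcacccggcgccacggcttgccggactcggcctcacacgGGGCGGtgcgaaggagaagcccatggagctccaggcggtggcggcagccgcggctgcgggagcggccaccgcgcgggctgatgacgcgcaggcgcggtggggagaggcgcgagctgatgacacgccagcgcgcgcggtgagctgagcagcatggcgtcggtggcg
In the Myd88 promoter the run of capitals at the TATA box is a match on each strand, overlapping in the middle. The Zdhhc3 and Exosc7 windows overlap by 136 bases, in which one is the reverse complement of the other.

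A promoter was found for 35 of the 41 names, and Golga4, Limd1, Osbpl10, Tmem158, Xylb and Zbtb47 had no entry. The 35 promoters were rich in CpG dinucleotides, with a median of 23 against 18 in promoters of 14029 tested genes and 7 in all 27025 promoters. The single windows shown above hold 13 in Myd88, 46 in Ctnnb1, 39 in Zdhhc3 and 41 in Exosc7. A GC box was found in 24 of the 35 (68.6%), against 57.3% of promoters of tested genes and 35.9% of all promoters. The CCAAT box was in 15 (42.9%, against 38.4% and 37.9%). The TATA box was in those of Rbms3 and Myd88 (5.71%, against 8.32% and 14.2%). The E-box was in 7, those of Cmc1, Gorasp1, Eif1b, Entpd3, Sec22c, Zdhhc3 and Lztfl1 (20%, against 9.34% and 7.24%). These are matches of letters in a window, and no binding was measured in these libraries.

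Signalling and adhesion account for 11 of the tested genes, and their median log2 fold change was 0.51 (range -0.20 to 0.96). Myd88, at chr9:119335934-119341411 on the minus strand, had log2 values of 12.73, 12.64 and 12.65 in SIRT1 KO libraries, against 11.71, 11.64 and 11.77 in WT libraries. This was the largest log2 fold change of the list, 0.96 (SE 0.0619), a ratio of 1.95, with a wide gap between the groups. Ctnnb1, at chr9:120929216-120960507 on the plus strand, had 18.25, 18.28 and 18.32 in SIRT1 KO libraries, against 17.79, 17.72 and 17.82 in WT libraries, a log2 fold change of 0.51 (SE 0.0514). Per kilobase of exon, on the linear scale, Ctnnb1 stood highest of the listed genes in both genotypes, at 61456 in SIRT1 KO and 43265 in WT.

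Tmem158, a membrane protein gene induced by Ras signalling, was the one tested gene with a negative difference. It had 9.07, 8.86 and 8.88 in SIRT1 KO libraries, against 9.07, 9.13 and 9.21 in WT libraries, a log2 fold change of -0.20 (SE 0.0889), and SIRT1 KO replicate 1 reached the WT range. Of the other signalling genes, Itga9, the alpha-9 integrin chain, had a log2 fold change of 0.67. Limd1, a LIM-domain adaptor, stood at 0.60 and Ctdspl, a small phosphatase, at 0.59. Azi2, an adaptor of the kinase TBK1, stood at 0.53, and the kinase gene Snrk, of the AMPK-related family, at 0.48. Oxsr1, a kinase that controls ion cotransporters, and Ulk4, a pseudokinase, both stood at 0.40. Plcd1, a phospholipase C, stood at 0.32. None of these 8 overlapped between genotypes, and every SIRT1 KO value lay above every WT value in 21.8% of all tested genes.

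Genes of mitochondria and metabolism, grouped by hand like the other groups and with their values known, had a median log2 fold change of 0.76 over 9 genes (range 0.11 to 0.91). This median is the value of Entpd3, and the next value below it was 0.42, so it depends on where that gene was placed. Abhd5 (chr9:122351608-122381524, plus strand), the coactivator of the lipase that opens up stored fat, had 11.98, 11.92 and 12.05 in SIRT1 KO libraries, against 11.05, 10.95 and 11.22 in WT libraries. Its log2 fold change was 0.91 (SE 0.0806). Higd1a (chr9:121848563-121858362, minus strand), a small protein of the inner mitochondrial membrane induced by low oxygen, had 15.33, 15.39 and 15.44 in SIRT1 KO, against 14.59, 14.37 and 14.62 in WT. Its log2 fold change was 0.86 (SE 0.0725), and its level per kilobase ranked 4 among the 40 genes. Slc25a38 (chr9:120110374-120124504), the mitochondrial carrier that brings in glycine for heme synthesis, had 14.49, 14.53 and 14.51 in SIRT1 KO, against 13.73, 13.54 and 13.78 in WT. Its log2 fold change was 0.83 (SE 0.0674). For Abhd5, Higd1a and Slc25a38 alike, the lowest SIRT1 KO value stood well above the highest WT value.

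Tcaim, a mitochondrial protein gene, had 11.67, 11.73 and 11.74 in SIRT1 KO libraries, against 11.03, 10.84 and 10.96 in WT libraries, a log2 fold change of 0.77 (SE 0.0706). Entpd3, an enzyme that cleaves nucleotides outside the cell, was expressed at a low level and scattered more, at 8.45, 8.77 and 8.66 in SIRT1 KO, against 7.87, 8.06 and 7.68 in WT, a log2 fold change of 0.76 (SE 0.121). The groups stayed apart for both genes. Xylb, the kinase of xylulose, lay at the other end, with 12.30, 12.38 and 12.33 in SIRT1 KO, against 12.28, 12.25 and 12.15 in WT. Its log2 fold change of 0.11 (SE 0.0601) came from groups that nearly touched. Exog, a mitochondrial nuclease, stood at 0.42, Acaa1a, a peroxisomal thiolase, at 0.30 and Cmc1, a factor for building cytochrome c oxidase, at 0.25.

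The 10 genes of the secretory pathway and of membrane traffic had a median of 0.40 (range 0.03 to 0.75). Stt3b, a catalytic subunit of the oligosaccharyltransferase that attaches sugars to new proteins, had 16.40, 16.35 and 16.35 in SIRT1 KO libraries, against 16.05, 16.33 and 16.07 in WT libraries. WT replicate 2 stood close to the SIRT1 KO values, and the log2 fold change was 0.22 (SE 0.0763), or 0.31 without that library. Trak1, which couples mitochondria to kinesin, had 14.82, 14.71 and 14.68 in SIRT1 KO, against 14.51, 14.94 and 14.63 in WT, a log2 fold change of 0.04 (SE 0.101). Here WT replicate 2 was the highest of all 6 values, and the log2 fold change was 0.17 without it.

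Sec22c, of the family of SNARE proteins between endoplasmic reticulum and Golgi, is given in full because 1 library set its value. It had 12.20, 12.14 and 12.22 in SIRT1 KO libraries, against 11.63, 12.58 and 11.58 in WT libraries. The log2 fold change was 0.26 (SE 0.228) with WT replicate 2 and 0.58 without it. Among the others, the Golgi stacking protein gene Gorasp1 stood at 0.75, with SDs of 0.00485 in SIRT1 KO and 0.0209 in WT. The lipid-binding protein gene Osbpl10 stood at 0.71, the Golgi palmitoyltransferase gene Zdhhc3 at 0.66, and both the golgin gene Golga4 and the phosphoinositide phosphatase gene Sacm1l at 0.45. Lztfl1, which restrains the entry of the BBSome into cilia, had 12.38, 12.64 and 12.66 in SIRT1 KO, against 12.17, 12.22 and 12.24 in WT, a log2 fold change of 0.35 (SE 0.0808), with SIRT1 KO replicate 1 nearest to WT. Myrip, which ties Rab27 vesicles to myosin, was the lowest in level per kilobase of the 39 tested genes, at 12.9 in SIRT1 KO and 12.6 in WT, and had a log2 fold change of 0.03.

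The 9 tested genes that act in the nucleus, on RNA or in the cytoskeleton had a median of 0.48 (range 0.23 to 0.60). Exosc7, a subunit of the RNA exosome ring, had 15.10, 15.08 and 15.10 in SIRT1 KO libraries, against 14.57, 14.43 and 14.57 in WT libraries, a log2 fold change of 0.57 (SE 0.0548). Wdr48, the UAF1 subunit that activates the deubiquitinase USP1, had 15.19, 15.20 and 15.26 in SIRT1 KO, against 14.81, 14.78 and 14.82 in WT, a log2 fold change of 0.41 (SE 0.047). Both groups were tight and apart for these genes. Vill, a relative of the actin-binding protein villin, stood at 0.60. Csrnp1, a nuclear factor induced by axin, and Kif15, a kinesin of the mitotic spindle, both stood at 0.52, and Eif1b, a relative of translation initiation factor eIF1, stood at 0.48. Lower values were found for Nktr, a cyclophilin (0.26, or 0.34 without WT replicate 2), for Ss18l2, a relative of the chromatin protein SS18 (0.25), and for Zfp445, a zinc finger protein that guards imprints (0.23). WT replicate 2 was the lowest WT library for Ss18l2, at 12.49 against 12.70 and 12.63, as it was for Cmc1, Higd1a and Slc25a38. It was the highest WT library for 12 of the 39 genes.

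Some of these values rest on reads that more than 1 gene could claim. Exons of 15 genes share bases with a gene on the other strand, and the sources used here do not state whether counting used the strand, so reads of such neighbours cannot be told apart. Of all windows of 76 bases in the exons, 46.2% in Sacm1l also occur in another gene, mainly Slc6a20b, 30.9% in Gorasp1, mainly Wdr48, and 21.9% in Higd1a. It was 14.2% in Abhd5, mainly with A730085K08Rik, and 13.8% in Wdr48, mainly with Gorasp1. For Acaa1a the share was 12.5%, mainly with its paralog Acaa1b, and for Ctnnb1 11.1%, mainly with Ulk4, which ends inside it on the other strand. Acaa1b, not on the list, had a log2 fold change of 0.31, next to 0.30 for Acaa1a.

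Pairs of genes that start back to back differed little from each other in 3 cases. Zdhhc3 and Exosc7, with starts 10 bases apart, stood at 0.66 and 0.57. Gorasp1 and Ttc21a, 41 bases apart, stood at 0.75 and 0.54, and Kif15 and 1110059G10Rik, 46 bases apart, at 0.52 and 0.44. Myd88 and Acaa1a stood farther apart, at 0.96 and 0.30. Their GENCODE spans over all transcripts overlap by 1735 bases, while the RefSeq start sites used for the promoters lie apart.

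The list left out most genes of the stretch. The contrast that chose the stretch also gave the values of its unlisted genes, so their counts and medians are a description and no test. The table held 244 genes there, of which 204 were not listed, and 99 of those were tested. Over the 37 other protein-coding genes the median log2 fold change was 0.08, with 10 higher, 3 lower and 24 not past the threshold. Of all tested protein-coding genes, 12.4% were higher and 11.3% lower. Those 15 with a mean of at least 1000 had a median of 0.39, whereas the 22 below that mean had a median of -0.02. Tgfbr2 and Ano10 reached that mean only through SIRT1 KO libraries, and a split on the WT mean alone, added after the values were seen, gave medians of 0.31 over 13 genes and 0.02 over 24. Fold changes of low genes may be understated by the unnamed transformation, so medians above and below a split are not read against each other. The 62 tested genes that do not code for protein had a median of 0.03, with 7 higher and 0 lower, and 1 lower at an unadjusted p under 0.05. Of all such genes tested, 2.38% were higher and 3.18% lower. Zfp651, which lies between Nktr and Higd1a where the list has Zbtb47, stood at 0.39 and was counted as unlisted, since no table used here pairs these names. All 51 protein-coding genes of the stretch with a mean of at least 1000, listed or not, had a median of 0.45 and an interquartile width of 0.32. The same figures over the 10649 protein-coding genes of the genome at that level were 0.03 and 0.35. On the WT mean alone the medians were 0.45 over 49 genes and 0.03 over 10645.

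Among the other protein-coding genes, Ano10, of a family of ion channels and lipid scramblases, had the largest log2 fold change, 1.58 (SE 0.0767), with 10.54, 10.62 and 10.71 in SIRT1 KO libraries, against a mean of 9.04 (SD 0.0374) and a highest value of 9.07 in WT libraries. Tgfbr2, the type II receptor for TGF-beta, had 10.81, 10.78 and 10.84 in SIRT1 KO, against 9.22, 9.43 and 9.59 in WT, a log2 fold change of 1.39 (SE 0.0987). Both exceeded Myd88, the largest on the list. Next came Pomgnt2, a glycosyltransferase acting on dystroglycan (0.74), Ttc21a (0.54) and Rpl14 (0.53), a ribosomal protein gene of the kind that has processed copies elsewhere, so that its reads are uncertain.

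Mobp, a myelin protein gene, went the other way, with 10.68, 10.67 and 10.74 in SIRT1 KO libraries, against 11.63, 11.50 and 11.62 in WT libraries, a log2 fold change of -0.89 (SE 0.0673). Ccdc13 stood at -0.37, Ppp2r3d, a regulatory subunit gene of phosphatase 2A, at -0.35 and 2010315B03Rik at -0.13. Lars2, the mitochondrial leucyl-tRNA synthetase, scattered within both genotypes, with 15.90, 16.69 and 15.95 in SIRT1 KO, against 17.19, 16.37 and 15.94 in WT, and its log2 fold change of -0.32 had an SE of 0.305. Mobp and Ccdc13 lie between raised genes, so the raised level was not shared by all genes there. Ppp2r3d and 2010315B03Rik lie nearer the end of the chromosome, beyond the last listed gene, Lztfl1. The other tested protein-coding genes beyond Lztfl1 were Fyco1 (0.31), Cxcr6 (-0.03) and Xcr1 (0.18).

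The border of the list, inside Osbpl10, did not mark the border of the raised values. Just inside it, Stt3b stood at 0.22, Gadl1 at -0.12 and Tgfbr2 at 1.39. Osbpl10, on the list with 0.71, lies across it. Just outside, Rps27rt, a retrogene copy of Rps27 whose reads are uncertain for the same reason, stood at 0.21, Gpd1l, a relative of glycerol-3-phosphate dehydrogenase, at 0.78 and Cmtm8 at 0.30. Going further from the end, Cmtm7 (0.37), Cmtm6 (0.28), Dync1li1, a dynein light intermediate chain (0.54), and Cnot10, a subunit of the CCR4-NOT deadenylase (0.57), were positive as well. The next genes, C130032M10Rik (-0.11) and the let-7 target Trim71 (-0.17), were not. The 7 protein-coding genes from Cnot10 up to Rps27rt had a median of 0.37, and the 39 between 110 Mb and Trim71 one of 0.00. The place of this step was chosen after the values were seen and has no test.

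**Figure D2:**
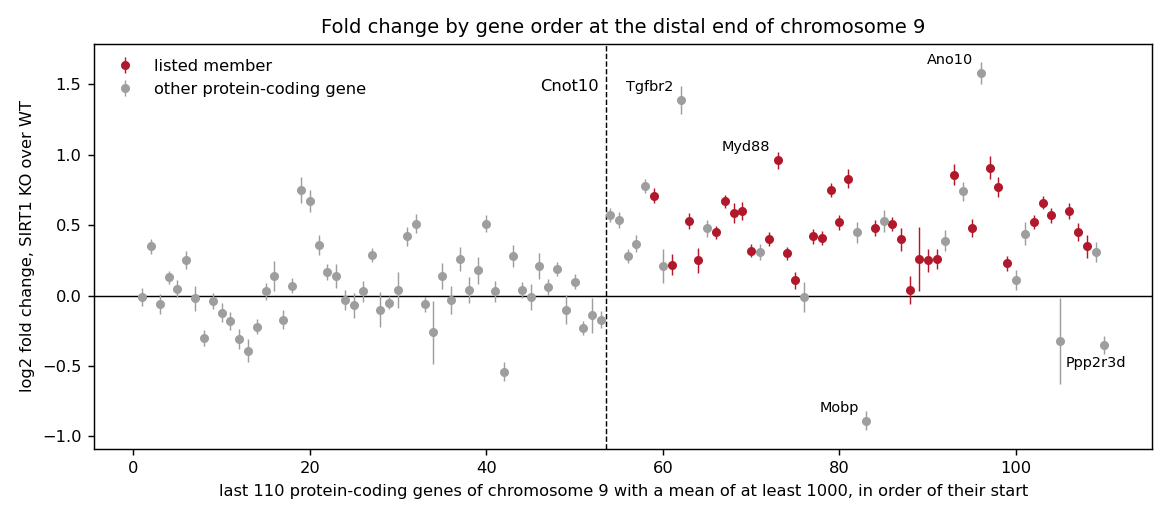
Log2 fold change (SIRT1 KO over WT, points, with the SE as bars) of the last 110 protein-coding genes of chromosome 9 with a mean of at least 1000, in chromosome order, with listed genes in red, other genes in grey and a dashed line before Cnot10. To the left of the line values scatter around 0, and to the right most listed and unlisted genes lie between 0.2 and 1, with Tgfbr2 and Ano10 above and Mobp and Ppp2r3d among those below.

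Windows of 5 Mb with at least 10 tested protein-coding genes were ranked by their median log2 fold change. Among 439 windows, the one that ends at 120 Mb of chromosome 9 (26 genes, median 0.40) ranked 4 and the one from 120 to 125 Mb (49 genes, median 0.26) ranked 10. Of the top 12 windows, 9 lie on chromosome 8, 2 are these and 1 lies on chromosome 6. On chromosome 8 between 45 and 100 Mb, the 257 protein-coding genes with a mean of at least 1000 had a median of 0.43, next to 0.45 for the end of chromosome 9. The 550 such genes of chromosome 9 before the border had a median of 0.04. These windows are described and not tested, because their values had been seen before.

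**Figure D3:**
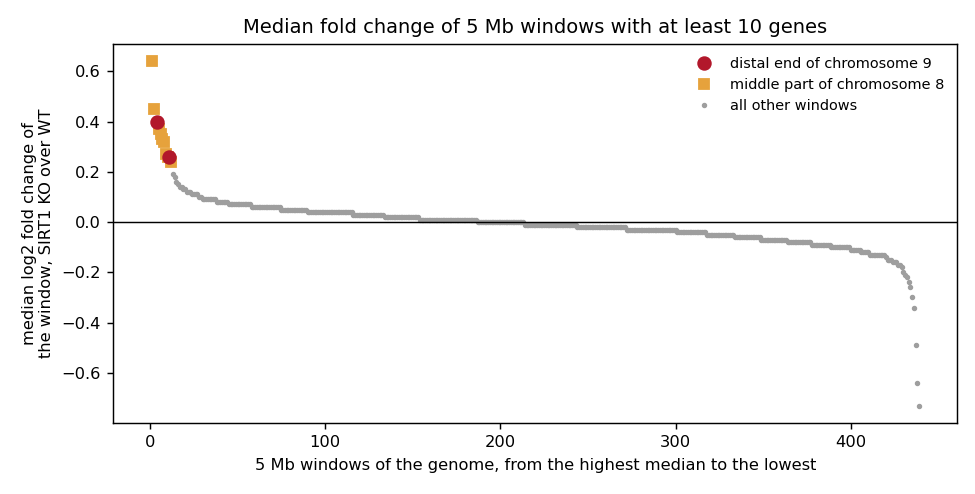
Median log2 fold change (SIRT1 KO over WT) of 439 windows of 5 Mb, each a point, from the highest on the left to the lowest on the right, with both windows at the end of chromosome 9 as red circles and windows of the middle part of chromosome 8 as orange squares. The red circles, at 0.40 and 0.26, stand among the orange squares above the flat run of windows near 0.

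To see how the partners of these proteins were expressed, 9 lists of genes that lie elsewhere were read from the test over all genes. In all, 103 partner genes were tested, of which 17 were higher and 7 lower in SIRT1 KO at an adjusted p under 0.01 in limma, and their median log2 fold change was 0.08. Over all tested genes 8.47% were higher and 8.12% lower, and over tested protein-coding genes 12.4% and 11.3%. Of the 10649 protein-coding genes with a mean of at least 1000, 1745 were higher and 1277 lower. The partners are thus not set apart from such genes by their number higher. The lists were written with earlier results of these libraries known, and their counts are a description.

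Beta-catenin is broken down by a complex of scaffold proteins and kinases, held at junctions by cadherins and catenins, and coupled in the nucleus to TCF and LEF factors. Of 8 genes of the destruction complex, 1 was higher, 0 were lower (1 at an unadjusted p under 0.05 in limma, and 1 past the threshold without WT replicate 2, with a filter at a mean of 100 or after quantile normalization) and 7 did not pass, with a median of -0.02. The one that passed was Amer1, a membrane anchor of the complex, on chromosome X. Its log2 values were 13.28, 13.31 and 13.18 in SIRT1 KO libraries, against 12.40, 12.76 and 12.43 in WT libraries, a log2 fold change of 0.73 (limma adjusted p = 0.00064, SE 0.0968).

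Among 13 partners at junctions and in the nucleus, 2 were higher and 2 lower, with a median of -0.11. Lef1, which binds DNA and recruits beta-catenin, fell most, with 8.01, 8.66 and 8.34 in SIRT1 KO libraries, against 10.80, 11.17 and 10.71 in WT libraries. Its log2 fold change was -2.56 (limma adjusted p = 1.51e-05, SE 0.174), with no overlap. Ctnna1, the alpha-catenin that links beta-catenin to actin, was higher by 0.35 on the log2 scale (limma adjusted p = 0.000666, SE 0.0466). Jup, or plakoglobin, the closest relative of beta-catenin, was higher by 0.29 (limma adjusted p = 0.00278, SE 0.0496), and the coactivator gene Bcl9l stood at -0.48 (limma adjusted p = 0.00787, SE 0.101). The calls of Jup and Bcl9l were lost when single libraries were left out. For Jup this was SIRT1 KO replicate 1, 2 or 3 or WT replicate 1, and for Bcl9l SIRT1 KO replicate 1, 2 or 3 or WT replicate 3, with limma adjusted p-values over all the leave-one-out fits of 0.000784 to 0.0175 for Jup and 0.00263 to 0.0384 for Bcl9l.

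Of 11 direct targets of beta-catenin tested, 3 were lower and 1 higher, with a median of -0.08, and Lgr5 was too low to be tested. The number higher was 2 with no filter, with a filter at a mean of 100, after median centring or quantile normalization and with no trend, and 0 without SIRT1 KO replicate 1 or 3. Axin2, a feedback inhibitor in the pathway and a standard readout of it, had 13.73, 13.66 and 13.60 in SIRT1 KO libraries, against 14.34, 14.42 and 14.40 in WT libraries. The log2 fold change was -0.72 (limma adjusted p = 2.73e-05, SE 0.0547). Ccnd1, or cyclin D1, fell by 0.69 on the log2 scale (limma adjusted p = 5.65e-05, SE 0.0601), and Notum, a secreted enzyme that inactivates Wnt proteins, fell by 0.56 (limma adjusted p = 0.000489, SE 0.0708). Cdx1, a homeobox gene, rose by 0.50 (limma adjusted p = 0.00301, SE 0.0885), and no longer passed without SIRT1 KO replicate 1 or 3, with limma adjusted p-values of 0.00157 to 0.0157 over the leave-one-out fits. Ctnnb1 RNA was thus higher in SIRT1 KO while the RNA of 3 of these targets and of Lef1 was lower.

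Partners of Myd88 were spread on both sides of 0. Of 17 tested, 1 was higher and 1 lower, with a median of -0.08, and Tlr4 and Tlr9 were too low to be tested. The number lower was 2 without WT replicate 1 or 2 and with no trend, and 0 without SIRT1 KO replicate 2 or 3, and the number higher was 2 after median centring. Tlr2, a receptor for bacterial lipoproteins, had 13.13, 13.22 and 13.24 in SIRT1 KO libraries, against 12.62, 12.69 and 12.74 in WT libraries, a log2 fold change of 0.51 (limma adjusted p = 0.000301, SE 0.0597). Irak2, a kinase of the complex that MyD88 builds, had a log2 fold change of -0.40 (limma adjusted p = 0.00179, SE 0.0636). It no longer passed without SIRT1 KO replicate 2 or 3, with limma adjusted p-values of 0.000651 to 0.011 over the leave-one-out fits.

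Of 12 tested partners of Exosc7 in the RNA exosome, 2 were higher and 1 lower, with a median of 0.14. The catalytic subunit genes Exosc10 (limma adjusted p = 0.000266) and Dis3 (limma adjusted p = 0.000695) both had log2 fold changes of 0.40. Exosc4, which like Exosc7 is part of the ring, went the other way, with 13.73, 13.78 and 13.76 in SIRT1 KO libraries, against 14.25, 14.13 and 14.30 in WT libraries, a log2 fold change of -0.47 (limma adjusted p = 0.000432, SE 0.0583). Subunits of 1 complex thus differed in sign.

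For Stt3b and Wdr48, no partner passed. Of 11 genes of the oligosaccharyltransferase, 0 passed in limma in either direction, log2 fold changes ran from -0.10 to 0.23 with a median of 0.13, and 6 were higher and 0 lower at an unadjusted p under 0.05. Of these genes, 1 passed without WT replicate 2 and 2 after median centring. Of 7 genes of the USP1-UAF1 deubiquitinases and their substrates, 0 passed in limma in either direction, log2 fold changes ran from -0.08 to 0.26 with a median of 0.11, and 2 were higher and 0 lower at an unadjusted p under 0.05. Here 1 passed without WT replicate 2 and 1 after median centring.

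The BBSome carries receptors along cilia, and chaperonin-like proteins assemble it. Of its 12 genes, 5 were higher and 0 lower in limma (7 higher and 0 lower at an unadjusted p under 0.05), with a median log2 fold change of 0.32 and a range of 0.07 to 1.31. Over all tested protein-coding genes 12.4% were higher and 11.3% lower. The list was written with earlier results known, so its count is a description. Bbs2 led with 13.32, 13.33 and 13.35 in SIRT1 KO libraries, against 12.03, 11.96 and 12.06 in WT libraries, a log2 fold change of 1.31 (limma adjusted p = 1.32e-06, SE 0.0545). Bbs2 lies at chr8:94067954-94098928 in GENCODE vM21 on GRCm38, inside the part of chromosome 8 described above. Ttc8, a BBSome subunit, rose by 0.66 (limma adjusted p = 0.000618), the chaperonin-like genes Bbs10 by 0.55 (limma adjusted p = 0.000843) and Mkks by 0.48 (limma adjusted p = 0.000282), and these lie on chromosomes 12, 10 and 2. Bbs12, on chromosome 3, rose by 0.44 (limma adjusted p = 0.00704). It no longer passed without SIRT1 KO replicate 1, 2 or 3 or WT replicate 1 or 3. Its limma adjusted p-values ran from 0.00069 to 0.0354 over the leave-one-out fits. The number higher was 4 to 5 without single libraries and up to 7 over all alternatives.

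Acaa1a closes the cycle of peroxisomal beta-oxidation, which shortens very long fatty acids. Of 12 genes of that pathway, 5 were higher and 0 lower in limma (7 higher and 0 lower at an unadjusted p under 0.05), with a median log2 fold change of 0.20. This count too is a description, beside 12.4% higher and 11.3% lower over all tested protein-coding genes. Acox3, an acyl-CoA oxidase that starts the cycle, had 12.77, 12.76 and 12.74 in SIRT1 KO libraries, against 11.90, 11.95 and 11.87 in WT libraries, a log2 fold change of 0.85 (limma adjusted p = 1.16e-05, SE 0.0548). Ehhadh, a bifunctional enzyme of the middle steps, rose by 0.45 (limma adjusted p = 0.00099), and the import receptor gene Pex5 by 0.42 (limma adjusted p = 0.000234). Hsd17b4, the other bifunctional enzyme, rose by 0.30 (limma adjusted p = 0.00497). The count was 3 without SIRT1 KO replicate 1, 2 or 3 or WT replicate 1, when Hsd17b4 no longer passed, with limma adjusted p-values of 0.00144 to 0.0293 over the leave-one-out fits.

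**Figure D4:**
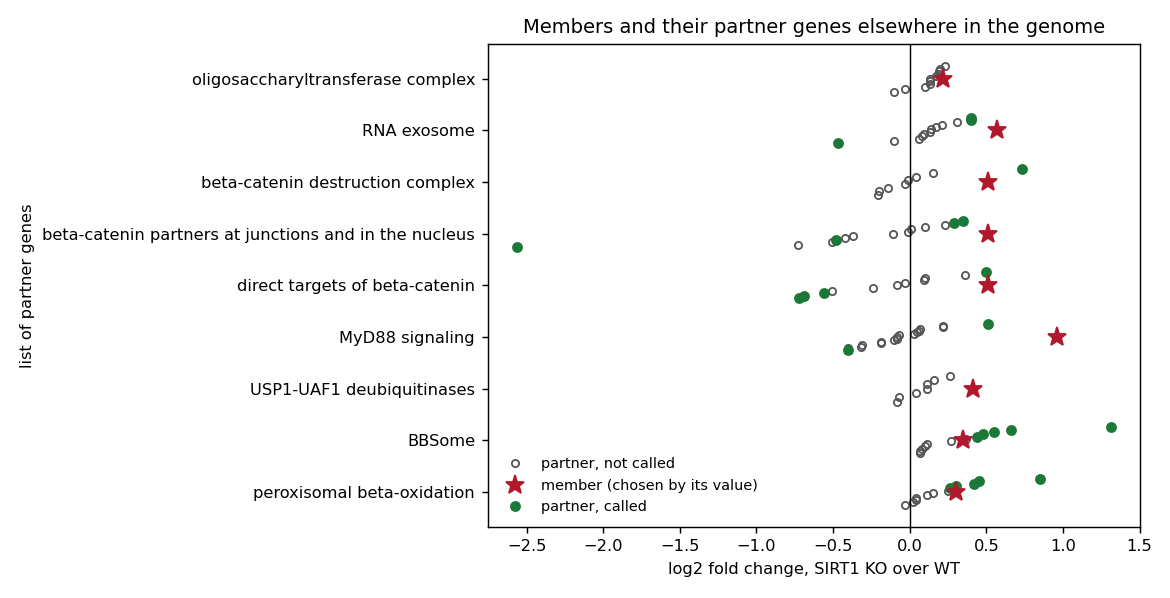
Log2 fold change (SIRT1 KO over WT) of the tested genes of 9 partner lists, as filled green points where the adjusted p was under 0.01 in limma and open points where it was not, with the gene of the chromosome 9 list as a red star. Stars stand to the right of most of their partners for Ctnnb1, Myd88, Exosc7, Wdr48, Stt3b and Acaa1a, and not for Lztfl1. The starred genes were chosen for raised values and their partners were not, so nothing is read from this. Lef1 lies far to the left at -2.56.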

How the data were processed

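The material was RNA from 3 SIRT1 KO and 3 WT libraries. After adaptor trimming with Trim Galore and alignment to GRCm38 with STAR, the authors obtained read counts from featureCounts, which DESeq2 normalized, and the deposited values are log2 of these normalized counts. The transformation behind them is not named. Some low genes have values below 0, so a shrinking transformation is possible and fold changes of low genes may be understated. Raw counts and depth were not used here, so the counting error behind a value is unknown. The study's methods describe rRNA-depleted libraries and the labels a poly(A) preparation, which was not settled. Columns of samples outside the series numbered 0.

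Of 54352 gene names, 53644 (98.7%) matched 1 gene of GENCODE vM21 on GRCm38, 105 matched more than 1 or were repeated, and 603 matched none. For the comparison of SIRT1 KO with WT, limma 3.58.1 in R 4.3.3 was fitted to the log2 values (empirical Bayes with a mean-variance trend, genotype alone in the model) for 26571 genes whose linear values averaged 10 or more. P-values were adjusted by Benjamini-Hochberg over all of them, with a threshold of 0.01. SD is between libraries and SE that of the fold change. The fit was tested on simulated data.

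The members, the partner lists and the choice of tests were made with earlier results of these data known. Values in each library were given for the 6 largest and 4 smallest log2 fold changes of members with a mean of at least 100, and for members with a partner list. Of other genes in the stretch, the 5 highest and 5 lowest with that mean and the 3 nearest to its border on each side were named, and of each partner list at most 4 called genes by adjusted p. Sec22c, Eomes, Acaa1b, Zfp651, Bbs12, Fyco1, Cxcr6, Xcr1 and the genes from Trim71 to Cmtm7 were named after their values were seen. Roles in the cell were assigned by hand.

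Deviations from the group mean were correlated between SIRT1 KO and WT libraries of equal replicate number (0.242, 0.149 and 0.316 for the 3 numbers). Between libraries of unequal number the correlations ran from -0.301 to 0.0838. No source says what the numbers stand for. The main fit left them out, so its calls, p-values and SEs are unpaired, and they entered as a block in an alternative fit only. The alternatives were a replicate block, median centring, quantile normalization, no filter, a filter at a mean of 100, a pseudocount of 10, no trend, and leaving out each library.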

Additional observations from a re-analysis of the deposited data

How the results depend on the processing

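The median log2 fold change of the listed genes, 0.48, was 0.53 after median centring, which moved the median of all genes by 0.06, and 0.43 after quantile normalization, and ran from 0.45 to 0.49 when single libraries were left out. Of 506 member values under 13 alternatives, 489 were positive and 22 moved by more than the spread between libraries. The count of listed genes past the threshold, 28, ran from 24 (without SIRT1 KO replicate 2 or 3) to 33 (without WT replicate 2) when single libraries were left out, was 28 to 31 where all were kept, and was 0 in the lower direction throughout. The share of all tested genes called higher, 8.47%, moved too, from 4.52% to 12.7% over the same alternatives. The median of the other protein-coding genes of the stretch, 0.08, was 0.00 with no filter on low values, 0.26 with a filter at a mean of 100, 0.14 after median centring and 0.13 after quantile normalization, and ran from 0.07 to 0.15 without single libraries.

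Of the partner genes, 17 were higher, or 26 after median centring and 12 to 20 without single libraries, and 7 were lower, or 5 to 11 without single libraries (11 without WT replicate 2). Of 312 values of called partners under the alternatives, 31 missed the threshold and 0 changed sign. Bcl9l also missed it in limma with no filter (adjusted p = 0.0101), median centring (0.0117), quantile normalization (0.0122) and no trend (0.0134), within a range of 0.00263 to 0.0384 over its alternatives. With the replicate number as a block, 29 listed genes were past the threshold, 9 partners were lower, and 1 of the called partners missed it. The causes of these shifts were not tested. Without counts, what depth limits could not be measured.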
